A study of Homo sapiens with 24 samples.

Results

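The mitochondrially encoded mRNAs described here are 10 of the 13 protein-coding genes that RefSeq annotates on the human mitochondrial genome, chosen by their Ensembl identifiers from the 20426 genes that are listed in all 24 count tables. They are 5 subunits of complex I (MT-ND1, MT-ND2, MT-ND3, MT-ND4 and MT-ND5), MT-CYB of complex III, the 3 core subunits of complex IV (MT-CO1, MT-CO2 and MT-CO3) and MT-ATP6 of complex V. All 10 passed the filter on low counts. Ribosome profiling was done on 6 cultured human cell populations. Each gave 2 INPUT libraries of RNA and 2 RPF libraries, which hold the RNA pieces shielded by ribosomes (footprints). Its design text asks how translational efficiency (TE, footprints relative to RNA) in each of 3 colon cancer lines differs from that in 841CON.

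Mitochondrial DNA is transcribed as long precursors, from which tRNAs are excised and the mRNAs released. The mRNAs never leave the organelle and are read by mitochondrial ribosomes, which differ from cytosolic ones in size and in drug sensitivity. Cycloheximide, the drug used to hold ribosomes in place in this study, binds the cytosolic ribosome and does not arrest the mitochondrial one. Every protein made from these mRNAs is a membrane subunit of the respiratory chain or of ATP synthase, and all are assembled with partners encoded in the nucleus.

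On the mitochondrial sequence of GRCh38.p14, per RefSeq, MT-ND1 (ENSG00000198888) covers bases 3307 to 4262 and MT-ND2 (ENSG00000198763) bases 4470 to 5511. MT-CO1 (ENSG00000198804) covers bases 5904 to 7445, MT-CO2 (ENSG00000198712) 7586 to 8269 and MT-ATP6 (ENSG00000198899) 8527 to 9207. MT-CO3 (ENSG00000198938) covers bases 9207 to 9990, MT-ND3 (ENSG00000198840) 10059 to 10404 and MT-ND4 (ENSG00000198886) 10760 to 12137. MT-ND5 (ENSG00000198786) covers bases 12337 to 14148 and MT-CYB (ENSG00000198727) 14747 to 15887. These are coding genes without introns, and they lie in this order along the genome. MT-ATP6 shares 46 bases with ATP8 and 1 base with MT-CO3, and MT-ND4 shares 7 bases with ND4L. Nuclear DNA carries copies of mitochondrial genes. How reads that match both were counted is not given in the sources used here, and the part of such reads in single members' levels was not tested.

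The populations were 841CON, labelled as normal colon epithelium, the colon cancer lines HCT116, HCT15 and SW620, HCT15 with PLVX in its title (called the vector line here) and HCT15 with COPS7B overexpression as its genotype. The other 5 populations carry the genotype label WT, the vector line included. Before lysis every culture received cycloheximide (100 µg/mL, 10 minutes), as the labels' protocols state. Each line had its own medium (EMEM for 841CON, RPMI-1640 for HCT116, DMEM for HCT15, L15 for SW620), and SW620 alone was kept in an air incubator, so line and culture cannot be told apart. Nothing in the labels says that replicates were grown separately. The p-values therefore reflect only how far the 2 libraries of a group differed, with this spread shared over all 12 groups, and that variation may be technical. The files do not pair identifiers with gene names, so the labelled cell types were not checked against marker genes here.

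INPUT libraries held 1237231 to 9105954 counts over the 60623 genes of their tables, of which 53.8 to 88.8% lay in the 20426 shared genes, and RPF libraries 84262 to 4679279. The RPF libraries of SW620 were the shallowest, with 98043 and 84262 counts. The INPUT libraries of 841CON held 1616158 and 9105954 counts. In 4 groups (both assays of HCT116 and the footprints of 841CON and of COPS7B cells) the replicate libraries differed by 1.40 to 1.70 in chi-square per gene, little above sampling noise, against 4.12 to 63.8 in the other 8. They were kept as 2 samples each, and results with each such pair summed to 1 sample are given where they differ. Reads carried no stated molecular identifiers and may repeat a molecule, so intervals on shares cover counting error only. In bulk samples, fewer mitochondria per cell and less RNA per mitochondrion cannot be told apart.

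The share of footprints that fell in these 10 mRNAs was lowest in 841CON, at 0.0206% ± 0.0052 (SD, n = 2), and highest in SW620, at 13.9% ± 0.48 (SD, n = 2). In 841CON they made up 0.0170% (95% exact binomial interval 0.0157 to 0.0184) and 0.0243% (0.0219 to 0.0268) of footprint counts, from 613 and 387 counts. In HCT15 the shares were 0.251% and 0.169%, in the COPS7B line 0.472% and 0.489%, and in the vector line 0.481% and 0.828%. In HCT116 they reached 2.85% and 2.91%, and in SW620 14.2% (14.0 to 14.4) and 13.5% (13.3 to 13.8). No library of 841CON, HCT15, HCT116 or SW620 overlapped another of these 4 lines, whereas the lower vector library lay between the 2 COPS7B libraries. In SW620 a mitochondrial mRNA had the highest count of all genes in each RPF library and all 10 were among the 100 highest, while in 841CON the best-ranked member was in place 4274 and 3692.

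The same mRNAs spanned a far narrower range in RNA. As a share of INPUT counts in the 20426 shared genes they made up 0.591% and 2.09% in 841CON, 1.80% and 1.74% in the COPS7B line, 2.98% and 5.15% in the vector line, 5.29% and 3.61% in SW620, 6.33% and 3.60% in HCT15, and 6.27% and 6.59% in HCT116. Over all 60623 genes of the INPUT tables the shares were 0.506% and 1.51% in 841CON, 1.46% and 1.53% in the COPS7B line, 2.65% and 4.41% in the vector line, 3.11% and 1.94% in SW620, 4.74% and 2.99% in HCT15, and 4.58% and 4.75% in HCT116. The mean of SW620 thus moved most with the total, from 4.45% to 2.52%. The 2 libraries of 841CON stood well apart on either total. The order of lines by RNA was not their order by footprints: HCT15 had the second highest mean share of RNA in shared genes, 4.96% ± 1.93 (SD, n = 2), and the second lowest of footprints, 0.210% ± 0.058 (SD, n = 2). Its RNA share overlapped those of HCT116, SW620 and the vector line. The depth of the RPF libraries ran partly against the shares, being lowest in SW620 and next lowest in HCT116, and its part in the result was not tested. In counts as deposited, the members summed to 13933 and 11404 in the 2 SW620 RPF libraries and to 613 and 387 in those of 841CON.

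**Figure D1:**
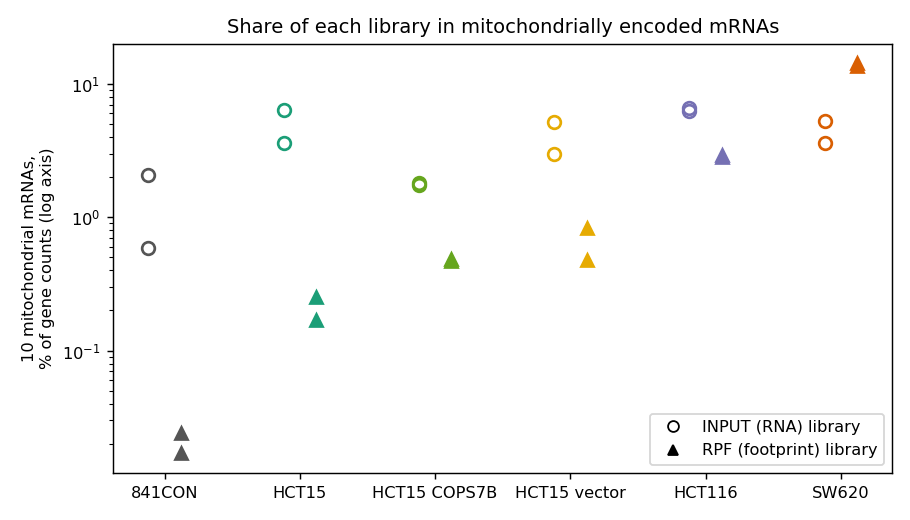
Share of the counts in the 20426 shared genes that fell in the 10 mitochondrially encoded mRNAs (log axis, percent), 1 symbol per library, for INPUT (open circles) and RPF (filled triangles) in 6 cell populations. Footprint shares run from 0.0170% in 841CON to 14.2% in SW620, while RNA shares stay between 0.591% and 6.59%.

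Footprints of all 10 mRNAs were higher in each of the 3 cancer lines than in 841CON. Levels below are CPM (counts scaled to the library's total in the shared genes, with trimmed-mean factors within each assay), and tests are edgeR's quasi-likelihood test with Benjamini-Hochberg adjustment over all genes, with a threshold of 0.05 and two-sided. In SW620 10 of 10 passed as higher, where 18.5% of all 11938 genes did. Only 4014 genes had 10 or more counts over the 2 SW620 RPF libraries, while members had 134 to 3704 in each. Many other genes thus had less power to pass there, also in the TE tests of SW620 below. In HCT116 10 of 10 passed as higher against 22.5% of all genes, and in HCT15 10 of 10 against 29.0%. The median member changed by 9.24 on the log2 scale in SW620, 6.82 in HCT116 and 2.97 in HCT15, where the median of all genes was -0.14, -0.26 and 0.27. For each member in each of these 3 comparisons, both libraries of the cancer line lay above both of 841CON, as they did for 25.8% of all genes in SW620, 33.8% in HCT116 and 39.7% in HCT15. As ratios of mean CPM, members stood 239 to 710 times as high in SW620, 37.8 to 236 times in HCT116 and 5.15 to 17.6 times in HCT15. Single members had only 4 to 154 footprint counts per 841CON library, so the size of these ratios is uncertain. The largest ratio in SW620 and in HCT116 was that of MT-CO2, with 39 and 13 counts in 841CON. Summing the close replicate pairs left 8 of 10 in HCT15 and 10 of 10 in the other lines. The 3 comparisons share the 841CON libraries. Among the cancer lines, both HCT116 RPF libraries lay above both of HCT15 for 10 members and for 26.7% of all genes. Both SW620 RPF libraries lay above both of HCT15 for 10 members and 19.4% of all genes. They lay above both of HCT116 for 10 members and 29.3% of all genes.

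Among the complex I subunits, MT-ND1 forms part of the membrane arm next to the quinone site. Its footprints stood at 13.0 and 23.0 CPM in 841CON, 225 and 187 in HCT15, 2151 and 2249 in HCT116, and 12280 and 10530 in SW620. The 4 lines did not overlap. Relative to 841CON the log2 change was 3.55 ± 0.44 (SE) in HCT15, 6.97 ± 0.50 in HCT116 and 9.34 ± 0.55 in SW620 (edgeR adjusted p = 4.6e-06, 9.7e-09 and 4.6e-09, n = 2 per group). MT-ND4, a proton-pumping subunit, had footprints at 17.8 and 37.5 CPM in 841CON, 567 and 404 in HCT15, 4276 and 4442 in HCT116, and 16540 and 21690 in SW620. Its change in HCT15, 4.16 ± 0.52 (edgeR adjusted p = 5.0e-06), was the largest of the 10 there.

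MT-ND5, the pumping subunit at the far end of the membrane arm, stood at 13.0 and 19.9 CPM in 841CON, 165 and 92.6 in HCT15, 1676 and 1742 in HCT116, and 4450 and 4045 in SW620. MT-ND2, the third pumping subunit, stood at 15.6 and 20.7, 94.2 and 92.3, 665 and 706, and 4769 and 7004 CPM in the same lines. These 4 lines kept the same order for both genes. MT-ND2 had the smallest change of the 10 in HCT116, at 5.26 ± 0.50, and in HCT15, at 2.38 ± 0.45 (edgeR adjusted p = 1.2e-07 and 0.00029). MT-ND3, a small subunit whose loop takes part in the switch between active and resting complex I, rested on 10 and 4 footprint counts in 841CON, or 3.71 and 3.06 CPM. It stood at 69.6 and 34.0 CPM in HCT15, 754 and 708 in HCT116, and 2984 and 1372 in SW620.

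MT-CYB, the only subunit of complex III made in the mitochondrion, carries its b-type haems. Its footprints stood at 57.1 and 62.8 CPM in 841CON, 362 and 560 in HCT15, 6017 and 5922 in HCT116, and 12010 and 16620 in SW620. It had the smallest change of the 10 in SW620, at 7.90 ± 0.86 (edgeR adjusted p = 1.7e-06) there. Per kilobase of coding length, the members' mean footprint level in 841CON ran from 9.07 CPM for MT-ND5 to 61.2 CPM for MT-CO3.

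Of the complex IV subunits, MT-CO1 holds the site where oxygen is reduced. Its footprints stood at 49.0 and 54.4 CPM in 841CON, 539 and 242 in HCT15, 5654 and 5834 in HCT116, and 19830 and 17960 in SW620. MT-CO2, which takes electrons from cytochrome c, stood at 14.5 and 9.95, 181 and 62.5, 2869 and 2900, and 7442 and 9902 CPM in the same lines. MT-CO3, a structural core subunit, stood at 40.1 and 55.9, 359 and 228, 3367 and 3324, and 31040 and 25140 CPM. The lines did not overlap for any of the 3, as set out above for all 10 members with the shares over all genes. MT-CO2 changed most of the 10 in HCT116, at 7.85 ± 0.82 on the log2 scale (edgeR adjusted p = 3.7e-07).

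MT-ATP6, the subunit of ATP synthase that forms the proton channel with the rotating ring, had 10 and 12 footprint counts in 841CON. Its level was 3.71 and 9.19 CPM there, 40.8 and 45.8 in HCT15, 681 and 706 in HCT116, and 5431 and 2519 in SW620. The lines did not overlap, though the SW620 libraries differed from each other. The changes from 841CON were 2.85 ± 0.61, 6.85 ± 0.67 and 9.37 ± 0.73 on the log2 scale in HCT15, HCT116 and SW620 (edgeR adjusted p = 0.00086, 1.8e-07 and 6.7e-08).

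**Figure D2:**
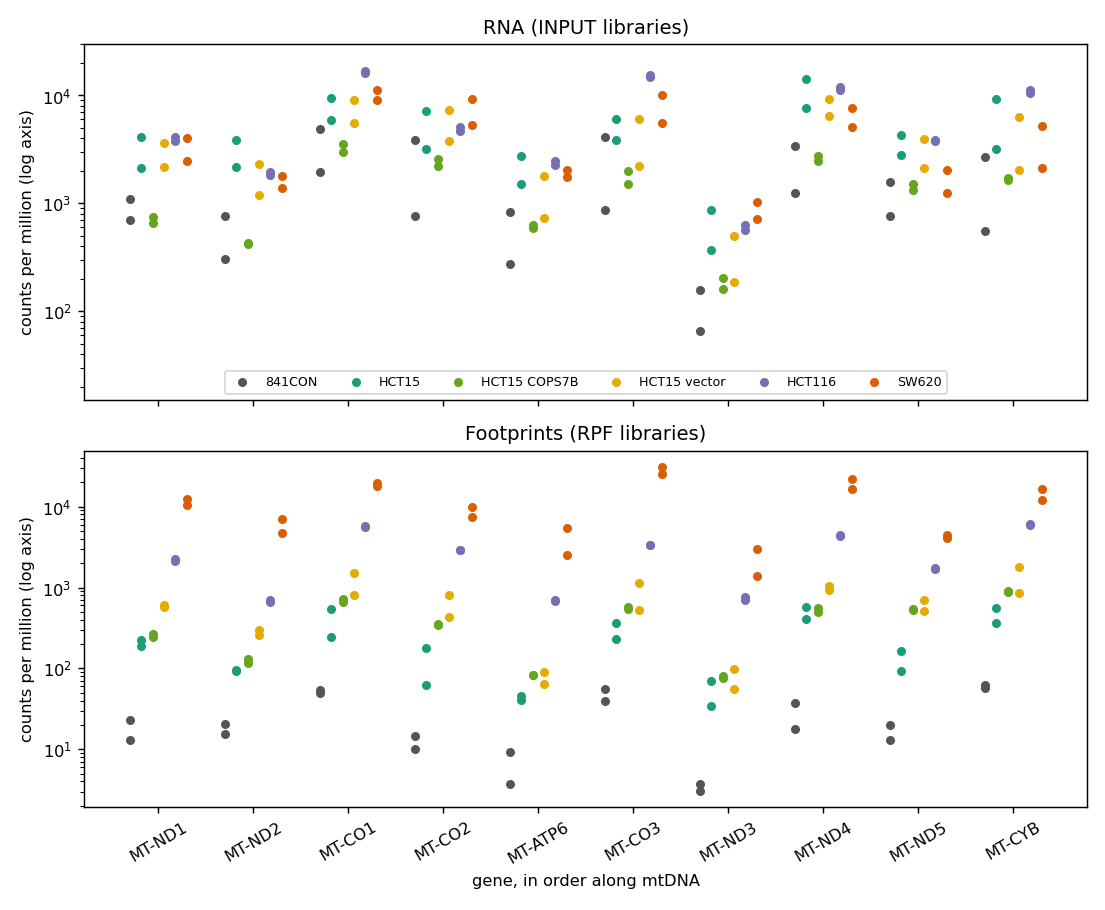
Level of each of the 10 mRNAs in every library, in CPM on a log axis, for RNA (upper panel) and footprints (lower panel), with genes in their order along mitochondrial DNA and colours for the 6 populations. Footprints of every member rise from 841CON through HCT15 and HCT116 to SW620, while in RNA the mean of HCT116 stands at 0.621 to 3.05 times that of HCT15 and that of SW620 at 0.335 to 1.49 times that of HCT116.

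RNA of these genes was also higher in the cancer lines than in 841CON, by far less. In HCT116 9 of 10 passed as higher at the RNA level, where 19.5% of all genes did, with a median member change of 2.20 on the log2 scale. In HCT15 8 of 10 passed as higher, against 17.4% of all genes (median 1.86), and in SW620 8 of 10, against 21.7% (median 1.61). The median change of all genes was -0.01, 0.00 and 0.02. Without 841CON INPUT replicate 2 the members' median was 2.83 in HCT15 and 2.54 in SW620, without 841CON INPUT replicate 1 it was 0.98 in SW620, and without HCT15 INPUT replicate 1 it was 1.20 in HCT15. In a fit of the compared libraries alone 3, 0 and 1 of the 10 passed in HCT116, HCT15 and SW620. Over all genes 10.6% then passed as higher in HCT116 and 10.3% in SW620, while in HCT15 0 of 11210 genes passed. INPUT replicates thus decided part of the size of these changes and of the member counts. Without 841CON INPUT replicate 1, the library with the lower share, the members' median was 1.28 in HCT15. Without SW620 INPUT replicate 1 it was 1.3 in SW620. Such fits leave 1 library in a group, so only the size of the change is given here.

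MT-CO1 RNA stood at 1960 and 4843 CPM in 841CON, 16080 and 16960 in HCT116, 9412 and 5992 in HCT15, and 11310 and 9178 in SW620. Each cancer library lay above both of 841CON, as for 34.75% of all genes in HCT116, 27.45% in HCT15 and 34.1% in SW620. The log2 changes of MT-CO1 were 2.28 ± 0.47, 1.18 ± 0.45 and 1.59 ± 0.46 (edgeR adjusted p = 0.00081, 0.0497 and 0.0085). Without 841CON INPUT replicate 1 the last 2 of these calls were lost (edgeR adjusted p = 0.299 and 0.085), as both were with the compared libraries alone (0.259 and 0.156), and that in HCT15 also without HCT15 INPUT replicate 1 (0.309), with close pairs summed (0.144), under the replicate block (0.057) and with scaling without mitochondrial genes (0.061). MT-CO2 RNA stood at 758 and 3885 CPM in 841CON, 4728 and 5106 in HCT116, 7233 and 3205 in HCT15, and 9221 and 5385 in SW620. The lower HCT15 library was below the higher 841CON library, and the change passed in SW620 alone of the 3 comparisons (1.65 ± 0.61, edgeR adjusted p = 0.034). That call was lost without 841CON INPUT replicate 1 (edgeR adjusted p = 0.227), without SW620 INPUT replicate 1 (0.196), with the compared libraries alone (0.213) and with close pairs summed (0.085). MT-ND3 RNA had the largest change in SW620, at 2.94 ± 0.55 (edgeR adjusted p = 0.0003). MT-ND5 and MT-CYB did not pass for RNA in SW620, with log2 changes of 0.47 ± 0.41 and 1.16 ± 0.64 (edgeR adjusted p = 0.37 and 0.15), although their footprints were among those called. MT-CO3 RNA did not pass in HCT15, at 0.99 ± 0.58 (edgeR adjusted p = 0.195).

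Footprints relative to RNA therefore also differed. Cycloheximide does not arrest mitochondrial ribosomes, and counts per gene do not show which RPF reads came from them. TE of these mRNAs is thus a ratio of counts here, and the part of mitochondrial ribosomes in it was not tested. TE was higher than in 841CON for 10 of 10 members in SW620, where 8.24% of 8396 tested genes had higher TE, and for 10 of 10 in HCT116, where 14.5% of 8502 did. The median member changed by 7.53 on the log2 scale in SW620 and 4.79 in HCT116, while the median of all genes was -0.32 and -0.64 (0.03 and -0.37 without trimmed-mean scaling). With close pairs summed 8 of 10 members passed in HCT116. The changes ran from 6.33 ± 0.86 for MT-ND3 to 8.02 ± 0.72 for MT-ND4 in SW620 (edgeR adjusted p = 0.00012 and 1.9e-06). In HCT116 they ran from 3.45 ± 0.61 for MT-ND2 to 6.77 ± 0.95 for MT-CO2 (edgeR adjusted p = 0.00019 and 2.4e-05). The RNA change of MT-CO2 in HCT116 was 1.08 ± 0.60 (edgeR adjusted p = 0.16). It was 2.68 (edgeR adjusted p = 0.0043) without 841CON INPUT replicate 2 and 0.34 (edgeR adjusted p = 0.68) without replicate 1.

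In HCT15, TE passed as higher for 2 of 10 members, against 11.1% of 8876 genes. These were MT-ND1, at 1.76 ± 0.56, and MT-ND4, at 1.93 ± 0.65 (edgeR adjusted p = 0.038 and 0.049). The median member stood at 1.52 (0.59 without 841CON INPUT replicate 2) and the median of all genes at 0.25. MT-ND2 was at -0.12 ± 0.62 (edgeR adjusted p = 0.93) and MT-CO2 was at 2.10 ± 0.90 (edgeR adjusted p = 0.12). The HCT15 count fell to 0 when the compared libraries were fitted alone (0 of 8517 genes, of which 1399 had an unadjusted p under 0.05), with close pairs summed, with the replicate number as a block, and without 841CON INPUT replicate 2, 841CON RPF replicate 1, HCT15 INPUT replicate 2 or HCT15 RPF replicate 1, and rose to 6 without 841CON INPUT replicate 1.

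**Figure D3:**
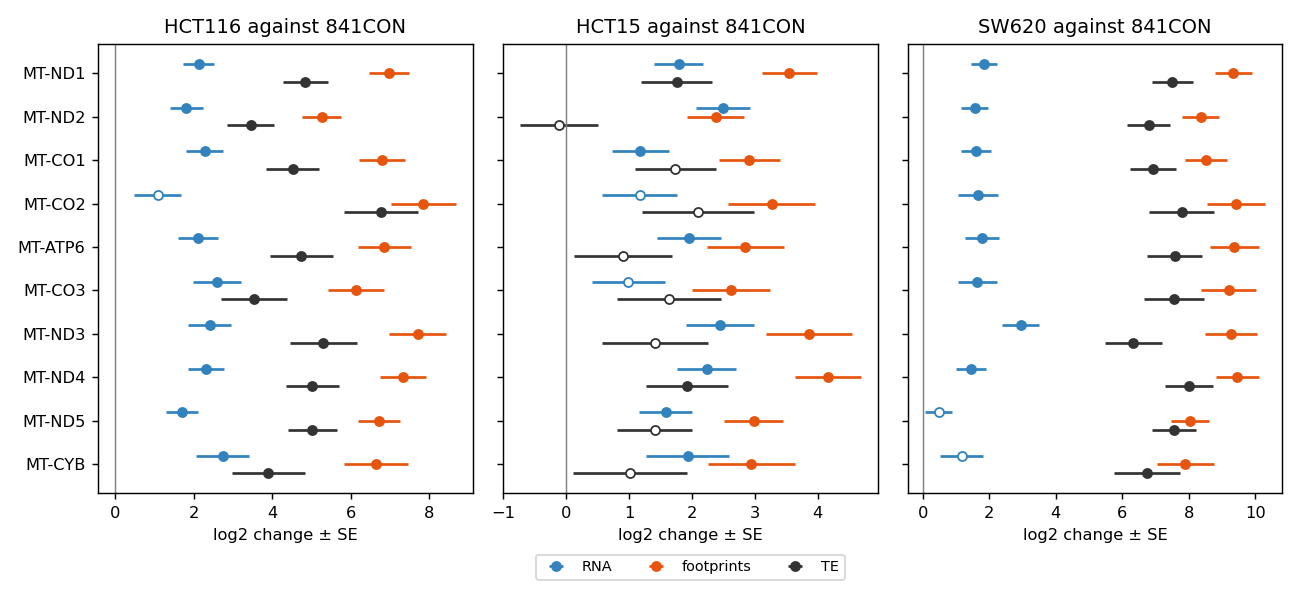
Log2 change (± SE, edgeR) of RNA, footprints and TE of each member in 3 cancer lines against 841CON; filled symbols passed at an adjusted p under 0.05 and the panels have different horizontal scales. Footprint changes lie far to the right of RNA changes in HCT116 and SW620, and TE passed for 2 of 10 members in HCT15.

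The 3 cancer lines differed among themselves in TE for 10 of 10 members by edgeR's quasi-likelihood F test, where 52.6% of 8304 genes passed. Pairs of lines were compared in tests added after the data had been seen. Footprints were higher in HCT116 than in HCT15 for 10 of 10 members, against 15.3% of all genes, and in SW620 than in HCT15 for 10 of 10, against 11.0%. TE was higher in SW620 than in HCT15 for 10 of 10 members, where 3.45% of 8915 genes had higher TE, with log2 differences from 4.92 ± 0.77 for MT-ND3 to 6.91 ± 0.63 for MT-ND2 (edgeR adjusted p = 0.0012 and 7.2e-06). It was higher in HCT116 than in HCT15 for 9 of 10, against 9.91% of 9025 genes. The median member differed by 5.84 on the log2 scale between SW620 and HCT15 and by 3.33 between HCT116 and HCT15, where the median of all genes was -0.55 (0.01 by DESeq2) and -0.94. MT-CO3 was the exception there, at 1.90 ± 0.82 (edgeR adjusted p = 0.064).

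TE was higher in SW620 than in HCT116 for 8 of 10 members, against 23.8% of 8548 genes, with a median member difference of 2.75 on the log2 scale where that of all genes was 0.28. The difference was largest for MT-CO3, at 4.03 ± 0.84 (edgeR adjusted p = 0.0014). MT-CO2 and MT-ND3 did not pass, at 1.02 ± 0.85 and 1.03 ± 0.73 (edgeR adjusted p = 0.36 and 0.28). In footprints alone 9 of 10 were higher in SW620 than in HCT116, against 26.6% of all genes. MT-CYB did not pass, at 1.26 ± 0.64 (edgeR adjusted p = 0.12). Its SW620 libraries, at 12010 and 16620 CPM, still lay above those of HCT116, at 6017 and 5922, as for 29.3% of all genes. With close replicate pairs summed the footprint count was 5 and the TE count 4. In RNA, 0 of 10 members differed between HCT116 and HCT15 or between SW620 and HCT15 by edgeR, and 1 of 10 (MT-ND5, lower in SW620 by a log2 difference of -1.23 ± 0.41, edgeR adjusted p = 0.025) between SW620 and HCT116. At an unadjusted p under 0.05 these RNA counts were 2, 2 and 2, and by DESeq2 1, 1 and 1. Over all genes 22.9% and 23.8% passed in either direction in the first and second of these, and 18.5% were lower in the third. In RNA both SW620 libraries lay below both of HCT116 for 7 of 10 members and above them for 2, as they did for 38.9% and 39.1% of all genes. The MT-ND5 call was lost with close pairs summed, without HCT116 INPUT replicate 1 or 2 and without SW620 INPUT replicate 2, and 2 members passed without SW620 INPUT replicate 1. Without HCT15 INPUT replicate 2, 1 member passed between SW620 and HCT15.

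Set against all genes of the same line, the ratio of footprint CPM to RNA CPM placed these mRNAs near the bottom in 4 populations and near the top in 1. The median ratio of the 10 was 0.0172 in 841CON, 0.0475 in HCT15, 0.178 in the vector line, 0.303 in the COPS7B line, 0.411 in HCT116 and 2.81 in SW620. The median over all genes of each line ran only from 0.563 in HCT116 to 0.927 in the vector line. The members' percentiles were 4.83 to 7.43 among 9757 genes in 841CON, where 4.58% of genes had no footprint, and 1.49 to 4.00 in HCT15. They were 0.727 to 9.83 in the vector line and 0.889 to 16.9 in the COPS7B line. In HCT116 they were 37.3 to 69.5, with 18.9% of genes at no footprint, and in SW620 74.2 to 99.3. The scale of this ratio is set within each assay, so its size cannot be read directly across lines. Its rank is not like for like across lines either, since genes with no footprint set the floor of the ranks. They were 1.17% of genes in HCT15 and 5.31% in SW620. Members in 841CON ranked just above that floor and above those in HCT15, although their median ratio was lower.

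In SW620 MT-CYB had the highest ratio of the 10, at 3.90, in percentile 99.3, and MT-CO2 the lowest, at 1.19. Over the 4 combinations of an RPF with an INPUT library the MT-CYB ratio ran from 2.29 to 7.88 and that of MT-CO2 from 0.807 to 1.84, so these did not overlap. In 841CON the same genes were again at the extremes, at 0.0366 for MT-CYB and 0.00526 for MT-CO2, with ranges of 0.0210 to 0.113 and 0.00256 to 0.0191 that did not overlap. In HCT116 MT-ND3 stood highest, at 1.22 (range 1.13 to 1.32), and MT-CO3 lowest, at 0.221 (0.213 to 0.228).

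**Figure D4:**
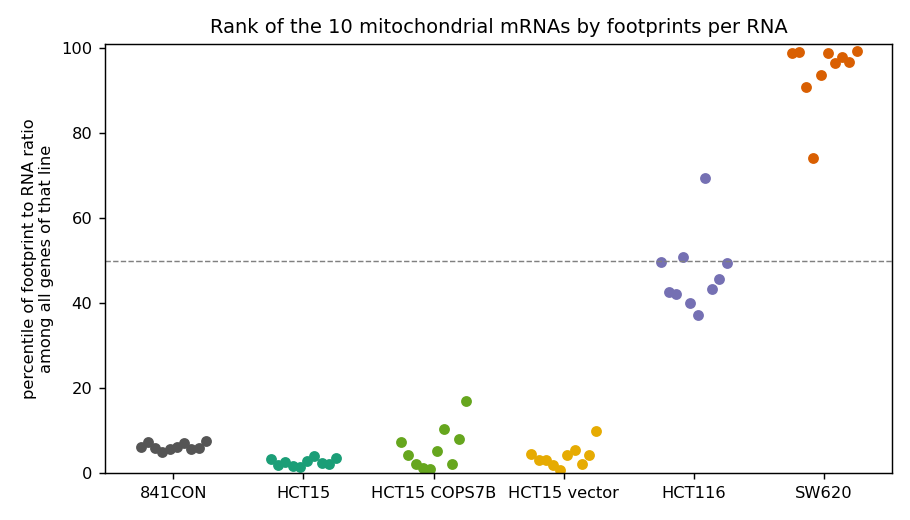
Percentile of the footprint to RNA ratio of each of the 10 members (points, in genome order from left to right within a population) among all genes of that population whose INPUT counts averaged 10 or more; the dashed line is the median gene. Members lie between 0.727 and 16.9 in 841CON, HCT15, vector and COPS7B cells, between 37.3 and 69.5 in HCT116, and between 74.2 and 99.3 in SW620.

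The vector line carried more mitochondrial footprints than HCT15 cells without the vector label. Only the vector and COPS7B count tables carry lines that name no gene. Line and set of tables cannot be told apart here, nor where HCT116 is set against the vector line. Of the 10 members 5 passed as higher in footprints (MT-CO1, MT-CO2, MT-ND1, MT-ND2 and MT-ND5), where 7.42% of all genes did, with a median member change of 1.52 on the log2 scale (0.99 without vector RPF replicate 2). Both vector libraries lay above both HCT15 libraries for 9 of 10 members and for 25.9% of all genes. MT-ND5 changed most clearly, from 165 and 92.6 CPM in HCT15 to 513 and 698 in the vector line (2.24 ± 0.43, edgeR adjusted p = 0.0028), a call lost without HCT15 RPF replicate 2 (0.068). RNA passed for 0 of 10 by edgeR (0 at an unadjusted p under 0.05, and 0 by DESeq2), with changes from -0.86 to 0.09. TE passed for 0 of 10 by edgeR, with changes from 1.45 to 2.45; 9 had an unadjusted p under 0.05 and DESeq2 called 3. The backgrounds were 0.729% of genes for RNA and 0.185% for TE. In a fit of the compared libraries alone, 0 of 9807 genes passed in footprints. The footprint count fell to 0 with the compared libraries alone and without HCT15 RPF replicate 2, and to 1 without vector RPF replicate 2 or with close pairs summed. Without HCT15 RPF replicate 1, 2 members passed for TE.

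The COP9 signalosome, to which COPS7B belongs, strips NEDD8 from cullin-based ubiquitin ligases. In the COPS7B line RNA of 3 of 10 members (MT-ND1, MT-ND2 and MT-ND4) was lower than in the vector line, where 8.23% of genes were lower. MT-ND1 RNA stood at 656 and 748 CPM in the COPS7B line and at 2155 and 3651 in the vector line, a log2 change of -2.05 ± 0.39 (edgeR adjusted p = 0.0011). The groups did not overlap, and this held for 9 of 10 members, while 28.3% of all genes were likewise lower in both COPS7B libraries. The MT-ND4 call was lost with close pairs summed (edgeR adjusted p = 0.074) and without COPS7B INPUT replicate 1 (0.092), COPS7B INPUT replicate 2 (0.124) or vector INPUT replicate 2 (0.133). The median member change in RNA was -1.23, and -0.63 without vector INPUT replicate 2. In footprints 1 of 10 passed as lower (MT-ND1, -1.22 ± 0.39, edgeR adjusted p = 0.035), against 9.20% of genes, and the count was 0 without any one of the 4 RPF libraries. The median member change in footprints was -0.65, and -0.08 without vector RPF replicate 2.

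TE passed for 0 of 10 members between the COPS7B and vector lines by edgeR, as it did for 0 of 9542 genes, of which 134 had an unadjusted p under 0.05. DESeq2 also called 0 genes, with 198 at an unadjusted p under 0.05. None of the 10 had an unadjusted p under 0.05, and DESeq2 called 0 of the 10. Their TE changes ran from 0.38 ± 0.84 for MT-CO2 to 1.15 ± 0.71 for MT-ATP6 on the log2 scale. HCT116, next above the vector line in footprints, was higher than it for 10 of 10 members, against 14.4% of genes, and for 6 of 10 without vector RPF replicate 1. TE passed as higher in HCT116 for 5 of 10 (MT-ATP6, MT-CO2, MT-ND1, MT-ND3 and MT-ND4), against 8.86% of 8998 genes. Summing close pairs left 0 of these TE calls, and 3 were left when mitochondrial genes were kept out of the scaling or trimmed means were taken over all 24 libraries. Their number was 0 without vector INPUT replicate 2 or vector RPF replicate 1, 1 without HCT116 INPUT replicate 1, 2 without HCT116 INPUT replicate 2 or either HCT116 RPF library, and 3 without vector RPF replicate 2. In RNA MT-CO3 alone passed (1.88 ± 0.59, edgeR adjusted p = 0.033), where 7.33% of genes were higher, and the count was 0 with close pairs summed, without trimmed-mean scaling, and without HCT116 INPUT replicate 1 or 2 or vector INPUT replicate 1. These 3 tests were added after the data had been seen.

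Within the 10, which member stood highest or lowest varied between populations, as means of 2 libraries with no test. By mean RNA CPM per kilobase of coding length, MT-CO2 was highest in 841CON, SW620, the vector line and the COPS7B line, MT-CO3 in HCT116 and MT-ND4 in HCT15. MT-ND3 was lowest in 841CON, HCT116, HCT15 and the vector line, MT-ND5 in SW620 and MT-ND2 in the COPS7B line. In footprints per kilobase MT-CYB was highest in HCT116, HCT15, the vector line and the COPS7B line, and MT-CO3 in 841CON and SW620. The lowest was MT-ATP6 in HCT15 and the vector line, MT-ND5 in 841CON and SW620, and MT-ND2 in HCT116 and the COPS7B line. Over the 12 libraries of each assay, the share of MT-CO2 per base of coding length ran from 10.4 to 26.0% in RNA, and that of MT-CYB from 8.60 to 26.9% in footprints.

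Relative to the median of the 10 in the same line, the footprint to RNA ratio of MT-CYB was above 1 in 6 of 6 populations, between 1.33 and 2.13. That of MT-ND1 was also above 1 in 6 of 6, between 1.14 and 1.38. MT-ATP6 was below 1 in 6 of 6, between 0.344 and 0.743, and MT-CO2 in 5 of 6, between 0.306 and 0.631, with HCT116 at 1.43. MT-CO1 was below 1 in 5 of 6, between 0.6575 and 0.886, with HCT15 at 1.07. MT-ND4 was below 1 in 5 of 6, between 0.673 and 0.933, with SW620 at 1.075. MT-ND2 was above 1 in 841CON, at 1.96, and in SW620, at 1.32, and below 1 elsewhere. MT-ND5 was above 1 in 3 of 6. MT-ND3 was above 1 in 5 of 6, up to 2.98 in HCT116, with SW620 at 0.892. MT-CO3 was above 1 in 5 of 6, between 1.04 and 1.28, with HCT116 at 0.537. These relative values are a description and were not tested.

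**Figure D5:**
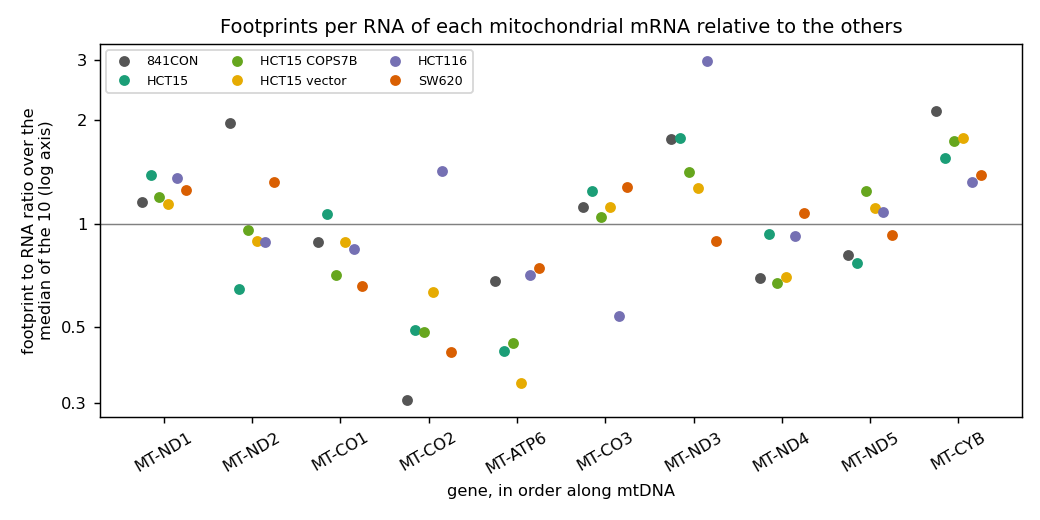
Footprint to RNA ratio of each member divided by the median of the 10 in the same population (log axis), with genes in their order along mitochondrial DNA. MT-ND1 and MT-CYB lie above 1 and MT-ATP6 below 1 in all 6 populations, while MT-CO2, MT-CO3 and MT-ND3 in HCT116 lie apart from the other lines.

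The members moved together across libraries. Over the 12 RPF libraries, Pearson's r between log2(CPM + 1) of pairs of members ran from 0.937 to 0.996, with a median of 0.978, and over the 12 INPUT libraries from 0.645 to 0.977, with a median of 0.861. These are descriptions: the libraries fall into 6 populations, and the members share library, depth and precursor transcript. Of all other genes, the pattern most like the members' mean was that of ENSG00000212907 in footprints, at r = 0.986, and of ENSG00000112425 in RNA, at r = 0.945. The tables used here do not pair these identifiers with names. The median r over all other genes was -0.19 in footprints and -0.04 in RNA.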

How the data were processed

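The deposited tables give raw counts per gene for 24 libraries, and per the submitters' processing notes the tools were cutadapt 3.5, STAR 2.7.9 and HTSeq 2.0.2. The genome build is not given in the sources used here. The authors deposited 60623 genes for INPUT and 20426 for RPF, and the 20426 genes in all tables were analysed. Lines that name no gene stayed out of the totals; in the vector and COPS7B tables reads not unique were 16.6 to 27.2%, and ambiguous reads 4.97 to 6.42% of INPUT and 0.324 to 0.748% of RPF.

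Genes with low counts were removed (filterByExpr, minimum count 10, in both assays), which left 11938. Trimmed-mean scaling was done within each assay. edgeR 4.0.16 in R 4.3.3 was fitted to all 24 libraries with 1 mean per group, and TE was the interaction of assay and line tested where INPUT averaged 10 or more counts in each line compared. DESeq2 1.42.0, other scalings, no filter, compared libraries alone, a replicate block, summed close pairs and left-out libraries were alternatives. The script was tested on simulated data. The members and lists were chosen with earlier results of these data known. By the naming rule all 10 members are named, and of the genes most like them 2 identifiers are printed. Standard errors were derived from the fold change and the test statistic. Lists of nuclear genes and cell type markers were not used here, since no table given pairs their identifiers with names.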

Additional observations from a re-analysis of the deposited data

Results flagged for a closer look

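The TE of each of the 10 members differed among HCT116, HCT15 and SW620 by the interaction F test (edgeR, adjusted over 8304 genes, of which 52.6% passed). The adjusted p was 5.4e-06 for MT-ND1, 3.53e-06 for MT-ND2, 0.000149 for MT-ND3, 1.38e-05 for MT-ND4 and 5.4e-06 for MT-ND5. It was 0.000421 for MT-CYB, 4.46e-05 for MT-CO1, 0.00017 for MT-CO2, 0.000111 for MT-CO3 and 1.6e-05 for MT-ATP6. Each member's TE was lowest in HCT15. Groups of 2 libraries are too small for a check on single outlying samples.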

How the results depend on the processing

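Counts here are members called of 10. Footprints of HCT116 and SW620 against 841CON, and TE of SW620 against 841CON, gave 10 under every alternative. With the compared libraries alone, RNA against 841CON gave 3 in HCT116, 0 in HCT15 and 1 in SW620. Of all genes 10.6%, 0% and 10.3% then passed as higher. RNA of HCT116 against HCT15 gave 2, where 13.8% of genes were higher. RNA of SW620 against HCT116 gave 2, where 31.5% were lower, and HCT116 against vector 3, where 23.5% were higher. Footprints gave 3 for COPS7B against vector, where 15.9% of genes were lower, and 0 for vector against HCT15. TE of HCT15 against 841CON gave 0. Without the filter, RNA gave 7 for COPS7B against vector, where 6.01% of genes were lower. It gave 2 for HCT116 against HCT15 and 3 for HCT116 against vector, where 9.02% and 5.32% of genes were higher. It gave 2 for SW620 against HCT116 and 1 for SW620 against HCT15, where 13.5% and 9.38% were lower. Footprints then gave 2 for COPS7B against vector, where 6.72% of genes were lower. TE then gave 4 for HCT15 against 841CON and 2 for vector against HCT15. DESeq2 gave 1 for RNA of HCT116 and of SW620 against HCT15, where 12.1% of genes were higher in HCT116 and 13.7% lower in SW620. It gave 2 for COPS7B footprints, where 9.57% of genes were lower, and 3 for TE of vector against HCT15. With close pairs summed, RNA of HCT116 against vector and of SW620 against HCT116 gave 0, footprints gave 0 for COPS7B, 5 for SW620 against HCT116 and 1 for vector against HCT15, and TE gave 0 for HCT116 against vector, 0 for HCT15 against 841CON and 4 for SW620 against HCT116. Without trimmed-mean scaling, RNA gave 0 for HCT116 against vector. RNA of SW620 against HCT15 then gave 1 (14.2% of genes lower), COPS7B footprints 0 and TE of HCT15 against 841CON 1. With trimmed means over all 24 libraries, the same last 3 gave 1 (14.9% of genes lower), 0 and 1, and TE of HCT116 against vector gave 3. Scaling without mitochondrial genes gave 3 for that TE and 1 for TE of HCT15 against 841CON. With the compared libraries alone, 0 of 11210 genes passed for RNA of HCT15 against 841CON and 0 of 9807 for footprints of vector against HCT15. The causes were not tested.

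With the replicate number as a block, COPS7B footprints gave 0 and TE of HCT15 against 841CON 0, and no other count moved by over 1.5 times. The pairing check set lines against each other within an assay and found correlations of same-numbered deviations from -0.137 to 0.113. Whether INPUT and RPF libraries of the same line and number belong together was not checked, and the TE tests took them as unpaired. A crossed block for vector against HCT15, chosen after seeing the data, gave 0 for RNA and 0 for TE.

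Leaving out 1 library at a time, RNA counts ran from 9 to 10 (HCT116), 4 to 10 (HCT15) and 2 to 9 (SW620) against 841CON, 2 to 4 for COPS7B, 0 to 1 for HCT116 against vector and for SW620 against HCT15, and 0 to 2 for SW620 against HCT116. Footprint counts ran from 0 to 0 for COPS7B, 6 to 10 for HCT116 against vector, 6 to 8 for SW620 against HCT116 and 0 to 5 for vector against HCT15. TE counts ran from 0 to 6 for HCT15 against 841CON and for HCT116 against vector, 0 to 2 for vector against HCT15, 8 to 9 for HCT116 against HCT15 and 7 to 8 for SW620 against HCT116.

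With mitochondrial genes left out of the total, the median ratio was 0.396 in HCT116 and 3.11 in SW620. Over all INPUT genes the RNA share was 1.496% in COPS7B, 4.66% in HCT116 and 2.52% in SW620. MT-CO1 held a mean of 21.3% of members' counts over the 12 INPUT libraries and 17.9% over the 12 RPF libraries, and 14.2% and 12.1% once each member was divided by its coding length. No call changed direction, but uncalled RNA medians did. That of HCT116 against HCT15, 0.14, was -0.08 without trimmed-mean scaling and -0.15 without HCT15 INPUT replicate 2. That of SW620 against HCT15, -0.06, was 0.05 by DESeq2, 0.49 without HCT15 INPUT replicate 1 and 0.09 without SW620 INPUT replicate 2. That of vector against HCT15, -0.37, was 0.09 without HCT15 INPUT replicate 1 and 0.10 without vector INPUT replicate 1. Depth is lowest in the SW620 RPF libraries, and single members had the smallest counts, 4 to 154, in the 841CON RPF libraries.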
